A study of Mus musculus with 8 samples.

Results

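The genes described here respond to amino acid shortage and to stress of the endoplasmic reticulum (ER). They form 2 lists: 24 genes that act in the ATF4 response (the ATF4 list) and 14 genes of protein folding, degradation and stress sensing in the ER (the ER list). A member was measured by the probe sets annotated with its symbol alone, and where several probe sets existed, the one with the highest mean signal over the 8 arrays was taken. Of the 38 members, 37 had such a probe set, and Pycr1, an enzyme of proline synthesis, had none. A member was tested where its probe set had a signal of 50 or more on 2 or more arrays. This held for 33 members, 19 of the ATF4 list and all 14 of the ER list. The whole series named 18194 genes by a probe set of their own, of which 8975 passed the same filter.

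NSCs cultured as secondary mouse neurospheres were treated for 7 or 3 days, and total RNA of 2 independent experiments for each group was hybridized to Affymetrix arrays. The 4 groups of 2 arrays were rcCHIL3 at 7 days, MHM + GF at 7 days, rcCHIL3 at 3 days and MHM + GF at 3 days. The agent rcCHIL3 (recombinant ECF-L in the sample labels) was medium hormone mix (MHM) conditioned by HEK293T cells, a human kidney cell line, that had been transfected with Chil3. The other medium was unconditioned MHM with the growth factors FGF-2 and EGF (GF); the sample labels call it MHM without recombinant ECF-L. CHIL3 itself, the other products of the conditioning cells and a difference in growth factors therefore cannot be told apart, and whether the rcCHIL3 medium used for the arrays held growth factors is not given in the sources used here. The tissue source of the array cultures is given as adult brain in the design text and as embryonic or adult striatum in the methods. No genotype or strain was compared.

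The signals are on a scale on which each array averages 100, and changes are log2 differences of signal + 20, so changes of dim genes are understated. A change passed the threshold when the limma p-value, adjusted over 15679 probe sets, was under 0.05. Within each group, the pair of arrays correlated at 0.992 to 0.994. The culture label was checked against markers of neural stem cells: all 8 of the list passed the filter, and Sox2 averaged between 1728 and 2055 in the 4 groups. With rcCHIL3, 0 of the 8 were higher and 3 lower at 7 days (21.3% and 22.7% of all probe sets). At 3 days 3 were higher and 4 lower (27.7% and 22.5%). Nes passed through MHM + GF at 3 days alone, and averaged 13.8 under rcCHIL3 and 29.9 under MHM + GF at 7 days, and 25.2 under rcCHIL3 and 187 under MHM + GF at 3 days. None of 5 markers of microglia and macrophages and none of 4 markers of endothelial cells passed the filter, with highest signals of 26.3 and 8.4. Between the groups, the summed signal of 4 astrocyte markers was 5627 to 5955 under rcCHIL3 and 5049.8 to 5234 under MHM + GF at 7 days, and 4397 to 4622 under rcCHIL3 and 2569.6 to 2576 under MHM + GF at 3 days. The summed signal of 7 proliferation genes was 1045 to 1117 under rcCHIL3 and 2054 to 2136 under MHM + GF at 7 days. At 3 days it was 1459.7 to 1557 under rcCHIL3 and 4914 to 5082 under MHM + GF. The 4 tested genes of neuroblasts and neurons had a median change with rcCHIL3 of -0.98 at 7 days and 1.14 at 3 days, and the 2 tested oligodendrocyte genes of 0.54 and 1.19. These markers differed along the same groups as the members; their part in the results below was not tested. In RNA of whole cultures, fewer cells of a type and less RNA per cell cannot be told apart.

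ATF4 is a transcription factor whose mRNA is translated when the initiation factor eIF2alpha is phosphorylated, which occurs when cells lack amino acids or when unfolded proteins gather in the ER. It turns on genes for amino acid synthesis, amino acid uptake, glutathione metabolism and, with its partner CHOP, cell death. The other branches of the unfolded protein response run through the sensor ATF6 and the factor XBP1 and turn on ER chaperones, foldases and the machinery that removes misfolded proteins. Much of ATF4 and XBP1 activity is set by translation, splicing and cleavage, which these arrays did not measure.

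The promoters of the members were searched for the short sequences that these factors bind, to show the regulatory DNA of both lists. The sequences are RefSeq windows of 300 bases (250 before and 50 after an annotated start, GRCm38.p6), found for 22 genes of the ATF4 list (26 windows) and 11 genes of the ER list (11 windows). The CARE, the element read by ATF4 with C/EBP partners, was searched as TGATGNAA on both strands. It was present in 7 of 26 windows of the ATF4 list (26.9%; Asns, Chac1, Nupr1, Pycr1, Slc7a11, Trib3 and Vldlr), in 1 of 11 windows of the ER list (9.09%; Herpud1) and in 3.97% of all 32851 windows. The ERSE, the element read by ATF6, was searched as CCAAT and CCACG with 9 bases between them. It was present in 4 of 11 windows of the ER list (36.4%; Calr, Canx, Creld2 and Pdia6), in none of the 26 windows of the ATF4 list and in 0.119% of all windows. The ERSE-II (ATTGG and CCACG with 1 base between them, sharing CCACG with the ERSE) was found in Herpud1 alone among the members and in 0.0365% of all windows, and the UPRE (TGACGTGG) in no member and in 0.676% of all windows. The lists were written from knowledge of these pathways, so these shares describe the lists and are not a test. For the 8 tested members with a motif and the largest changes between the media, the motif is shown with up to 30 bases on each side, from 5′ to 3′ on the strand of the gene, with the motif in capitals and the position of its first base relative to the start. The starts of Vldlr and Slc7a11 used here are RefSeq starts inside the gene, not its outermost end. TTGCATCA is the CARE read from the other strand, and in Calr and Creld2 the ERSE is likewise reversed.
Vldlr (CARE at -200, chr19:27216790-27216857, plus strand): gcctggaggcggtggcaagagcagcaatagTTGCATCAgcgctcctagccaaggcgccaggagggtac
Slc7a11 (CARE in both directions, the first at -66, chr3:50443623-50443709, minus strand): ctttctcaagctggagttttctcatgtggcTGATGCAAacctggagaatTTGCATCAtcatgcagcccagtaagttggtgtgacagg
Chac1 (CARE at -193, chr2:119351019-119351086, plus strand): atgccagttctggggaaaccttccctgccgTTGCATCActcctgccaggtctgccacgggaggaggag
Asns (CARE at -23, chr6:7693210-7693262, minus strand): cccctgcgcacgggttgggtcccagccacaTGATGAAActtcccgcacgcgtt
Herpud1 (CARE at -112, then ERSE-II, chr8:94386287-94386417, plus strand): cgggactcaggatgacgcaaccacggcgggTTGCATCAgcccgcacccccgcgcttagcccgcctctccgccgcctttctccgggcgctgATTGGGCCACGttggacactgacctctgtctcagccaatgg
Pdia6 (ERSE at -98, chr12:17266461-17266539, plus strand): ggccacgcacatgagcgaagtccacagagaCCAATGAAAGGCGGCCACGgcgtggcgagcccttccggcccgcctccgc
Calr (ERSE at -162, chr8:84847045-84847123, minus strand): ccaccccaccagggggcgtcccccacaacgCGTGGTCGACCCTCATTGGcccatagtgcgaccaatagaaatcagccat
Creld2 (ERSE at -126, chr15:88819490-88819568, plus strand): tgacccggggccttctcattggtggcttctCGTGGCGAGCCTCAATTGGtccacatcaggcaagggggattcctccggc

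The first comparison asked how the members differed between NSCs under rcCHIL3 and NSCs under MHM + GF on each day. With rcCHIL3 the ATF4 list moved in both directions: at 7 days 9 of 19 members were higher and 4 lower, and at 3 days 9 were higher and 7 lower. Over all probe sets tested, 21.3% were higher and 22.7% lower at 7 days, and 27.7% were higher and 22.5% lower at 3 days. The ER list held a smaller share of calls than the ATF4 list: at 7 days 4 of 14 members were higher and 1 lower, and at 3 days 2 were higher and 5 lower. Its share of higher members at 7 days was near that of all probe sets. At 3 days its share called in either direction was near theirs as well. The counts include Slc7a11 and Sdf2l1, which passed the filter through 1 group alone. Median log2 changes were 0.23 at 7 days and -0.02 at 3 days for the ATF4 list, and 0.10 and -0.09 for the ER list, beside -0.01 and 0.03 for all probe sets. Changes of at least 2-fold were rare among the members: Vldlr was the one member past the threshold with such a change at 7 days and Atf5 the one at 3 days, where 3.33% and 7.18% of all probe sets were. On the deposited scale, without rescaling, the ATF4 list had 9 higher and 2 lower at 7 days and 7 higher and 5 lower at 3 days. The ER list then had 0 higher and 5 lower at 3 days.

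**Figure D1:**
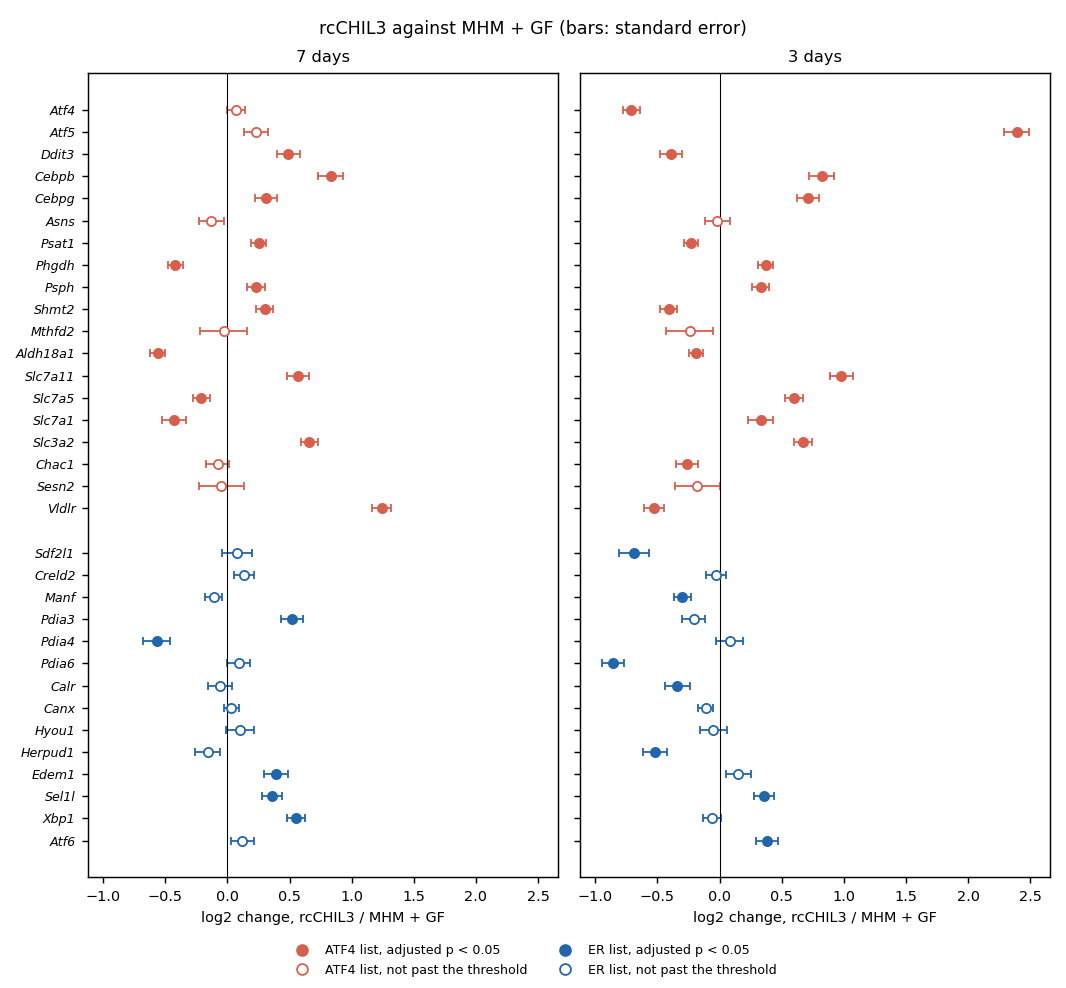
Log2 change of each tested member in rcCHIL3 against MHM + GF (x axis) at 7 days (left) and 3 days (right), with the standard error of the fit as bars; filled points passed the threshold. At 7 days Vldlr stands out at 1.24, and at 3 days Atf5 at 2.39, while members of both lists lie on both sides of 0.

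Among the regulators, Atf5 was far higher and Atf4 lower with rcCHIL3 at 3 days, and neither differed past the threshold at 7 days. Atf5, a transcription factor of the same stress response, had signals of 191 and 159.8 under rcCHIL3 and 149.6 and 143 under MHM + GF at 7 days. At 3 days its signals were 428 and 469 in rcCHIL3, against 74.5 and 64.8 in MHM + GF. The groups did not overlap at 3 days, where the log2 change was 2.39 ± 0.10 (SE, adjusted p = 5.3e-09), or 5.23-fold on the scale of signal + 20. At 7 days the change of Atf5 was 0.23 ± 0.10 (adjusted p = 0.078).

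Atf4 itself showed the opposite order. Its signals were 556 and 525 under rcCHIL3 and 487 and 541 under MHM + GF at 7 days, and 653 and 631 under rcCHIL3 and 1092 and 1035 under MHM + GF at 3 days. The arrays of the 2 media overlapped at 7 days (0.07 ± 0.07, adjusted p = 0.42), whereas at 3 days Atf4 was lower in rcCHIL3 on both arrays (-0.71 ± 0.07, adjusted p = 6.3e-06). Ddit3, which encodes CHOP, averaged 189 ± 7.4 under rcCHIL3 and 128 ± 8.8 under MHM + GF at 7 days (SD, n = 2 each), a rise of 0.49 ± 0.09 (adjusted p = 0.0013). At 3 days it averaged 159 ± 15.0 under rcCHIL3 and 214 ± 18.2 under MHM + GF, a change of -0.39 (adjusted p = 0.0043). Without rcCHIL3 array 1 at 3 days, that fall missed the threshold (-0.30, adjusted p = 0.052).

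The C/EBP factors, which pair with ATF4 on CARE sequences, were higher with rcCHIL3 on both days. Cebpb averaged 515 ± 13.4 under rcCHIL3 and 281 ± 22.6 under MHM + GF at 7 days, and 333 ± 41.5 under rcCHIL3 and 180.0 ± 21.7 under MHM + GF at 3 days. Its change was nearly the same on the 2 days, 0.83 ± 0.10 and 0.82 ± 0.10 (adjusted p = 6.4e-05 and 4e-05), and the change differed between days by 0.01 ± 0.14 (adjusted p = 0.94). Cebpg was higher by 0.31 ± 0.09 at 7 days (adjusted p = 0.016) and by 0.71 ± 0.09 at 3 days (adjusted p = 5.7e-05). Its call at 7 days was lost without MHM + GF array 1 (0.28, adjusted p = 0.074) and without rcCHIL3 array 2 (0.26, adjusted p = 0.10). The other, dimmer kept probe set of Cebpg was higher on both days (0.57 and 0.59, adjusted p = 0.0013 and 0.00078). Trib3, a pseudokinase induced through ATF4 and CHOP, and Nupr1, a small stress protein, stayed under the filter. Trib3 had signals of 52.5 and 41.3 under rcCHIL3 and 15.5 and 17.5 under MHM + GF at 7 days, and 45.7 and 44.0 under rcCHIL3 and 26.9 and 17.0 under MHM + GF at 3 days, so that both rcCHIL3 groups lay above both MHM + GF groups. Nupr1 did not exceed 25.1 on any array.

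**Figure D2:**
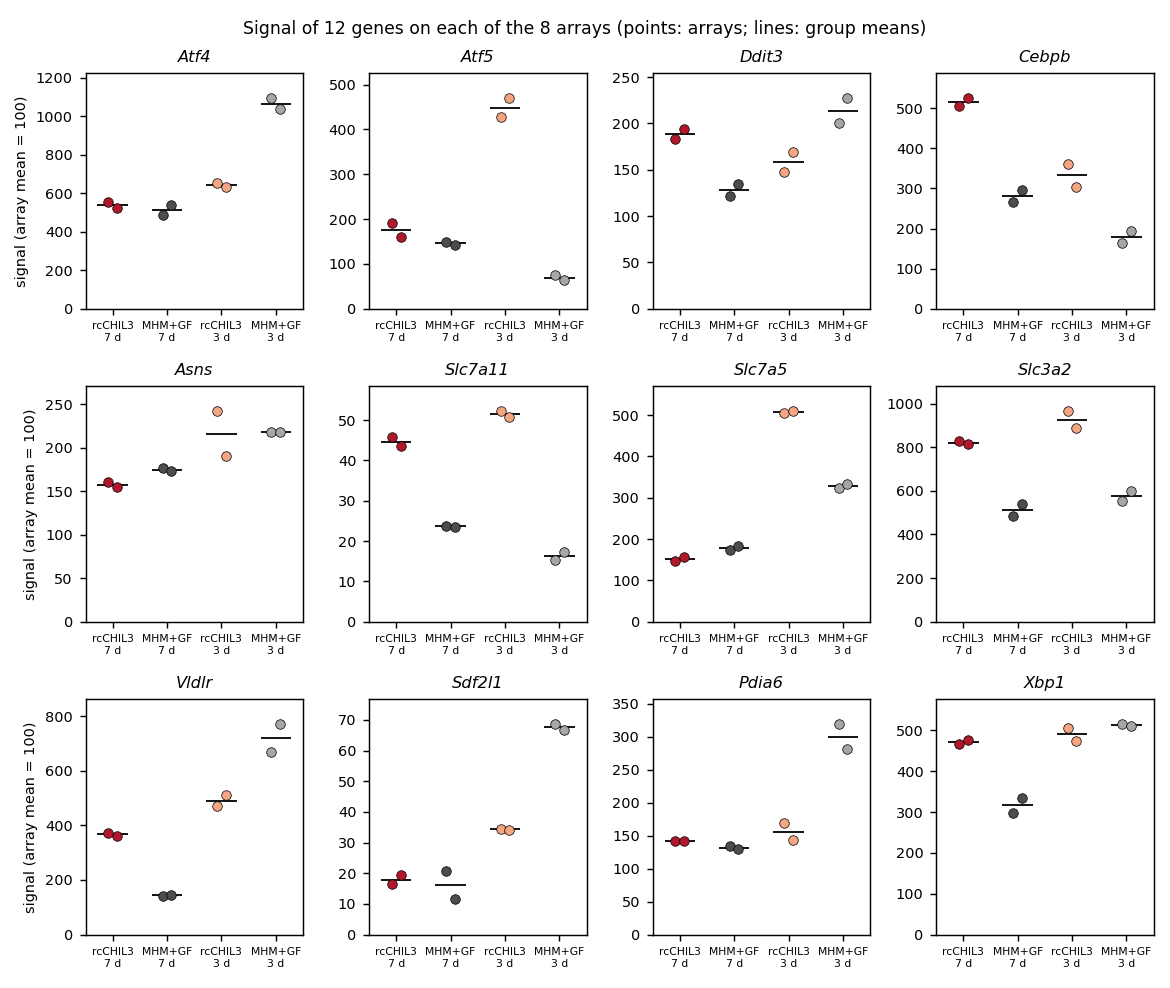
Signal (y axis, linear, from 0) of 12 members on each of the 8 arrays, with points for arrays and lines for group means. At 3 days Atf5 lies at 428 and 469 in rcCHIL3 and Atf4 at 1092 and 1035 in MHM + GF, while Slc7a11 and Slc3a2 are higher in rcCHIL3 on both days.

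Of the 4 amino acid transporters tested, all passed the threshold upwards with rcCHIL3 at 3 days, where 27.7% of all probe sets did. One of them, Slc7a11, could be tested only because it reached the filter in rcCHIL3 at 3 days, so its call there was favoured by the filter. The other 3 were Slc7a5, Slc3a2 and Slc7a1. Slc7a5, the light chain of the large neutral amino acid transporter, had signals of 146 and 156 under rcCHIL3 and 174 and 183 under MHM + GF at 7 days, and 504 and 509 under rcCHIL3 and 323 and 332 under MHM + GF at 3 days. It was thus highest in rcCHIL3 at 3 days, where it rose by 0.60 ± 0.07 (adjusted p = 2.6e-05), and slightly lower in rcCHIL3 at 7 days (-0.21 ± 0.07, adjusted p = 0.028).

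Slc7a11, the cystine importer xCT whose promoter carries the paired CARE shown above, had signals of 45.8 and 43.5 under rcCHIL3 and 23.7 and 23.6 under MHM + GF at 7 days, and 52.2 and 50.7 under rcCHIL3 and 15.3 and 17.3 under MHM + GF at 3 days. Its rcCHIL3 arrays lay above all MHM + GF arrays, with changes of 0.57 ± 0.09 at 7 days (adjusted p = 0.00066) and 0.98 ± 0.09 at 3 days (adjusted p = 6.2e-06). It passed the filter through rcCHIL3 at 3 days alone, which favours a higher value in that group.

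Slc3a2, the heavy chain that both of these light chains need at the cell surface, averaged 822 ± 8.8 under rcCHIL3 and 512 ± 41.4 under MHM + GF at 7 days, and 927 ± 54.3 under rcCHIL3 and 575 ± 31.6 under MHM + GF at 3 days. It was higher in rcCHIL3 by 0.66 ± 0.07 and by 0.67 ± 0.07 (adjusted p = 3.7e-05 and 1.7e-05), so the heavy chain was higher on both days while Slc7a5 was higher at 3 days alone. Slc7a1, the cationic amino acid transporter, averaged 147 ± 10.8 under rcCHIL3 and 205 ± 20.1 under MHM + GF at 7 days (-0.43 ± 0.10, adjusted p = 0.0047). At 3 days its means were 244 ± 26.5 under rcCHIL3 and 190.3 ± 12.5 under MHM + GF (0.33 ± 0.10, adjusted p = 0.017). A second, dimmer probe set of Slc7a1 gave 0.19 at 7 days (adjusted p = 0.20) and 0.25 at 3 days (adjusted p = 0.095). Slc7a3, a related cationic transporter, stayed under the filter with at most 36.6.

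The smallest of these transporter changes depended on single arrays or on the scale. The call of Slc7a1 at 3 days was lost without array 1 of MHM + GF (0.26, adjusted p = 0.10) or of rcCHIL3 (0.22, adjusted p = 0.16), and on the deposited scale its adjusted p was 0.056 at 7 days and 0.16 at 3 days. Slc7a5 at 7 days lost its call without MHM + GF array 2 (-0.18, adjusted p = 0.12), without rcCHIL3 array 1 (-0.17, adjusted p = 0.14) and on the deposited scale (-0.14, adjusted p = 0.52).

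The enzymes of amino acid and one-carbon metabolism changed little and in different directions: 3 of 7 were higher and 2 lower at 7 days (21.3% and 22.7% of all probe sets), and 2 were higher and 3 lower at 3 days (27.7% and 22.5%), with no change of 2-fold. The shares of higher enzymes at 3 days and of lower ones at 7 days were near those of all probe sets. Asns, asparagine synthetase and the classic CARE gene, averaged 158 ± 3.4 under rcCHIL3 and 175 ± 2.6 under MHM + GF at 7 days (-0.13 ± 0.10, adjusted p = 0.29). At 3 days the averages were 216 ± 36.7 under rcCHIL3 and 218 ± 0.23 under MHM + GF (-0.02 ± 0.10, adjusted p = 0.89). Neither difference passed the threshold, and at 3 days the rcCHIL3 arrays (242 and 190.4) lay on both sides of the MHM + GF arrays. A second, dimmer Asns probe set was lower with rcCHIL3 at 7 days (-0.39 ± 0.08, adjusted p = 0.0021), did not pass at 3 days (-0.05, adjusted p = 0.64) and passed for the difference between the days (-0.35, adjusted p = 0.028).

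The 3 enzymes of serine synthesis did not move together. Phgdh, the first enzyme of the path, averaged 1485 ± 50.4 under rcCHIL3 and 1989 ± 27.3 under MHM + GF at 7 days (-0.42 ± 0.06, adjusted p = 0.0002). At 3 days it had signals of 1863 and 1997 under rcCHIL3 and 1476 and 1502 under MHM + GF (0.37 ± 0.06, adjusted p = 0.0003). Psat1, the next enzyme, ran the other way, with 0.25 ± 0.06 at 7 days (adjusted p = 0.0085) and -0.23 ± 0.06 at 3 days (adjusted p = 0.011). Psph, the last enzyme, was higher with rcCHIL3 on both days, by 0.23 ± 0.07 (adjusted p = 0.026) and 0.33 ± 0.07 (adjusted p = 0.003). Shmt2, which moves a carbon unit from serine to folate in mitochondria, was higher at 7 days (0.30 ± 0.07, adjusted p = 0.0067) and lower at 3 days (-0.41 ± 0.07, adjusted p = 0.00071). Aldh18a1, which starts proline synthesis, was lower with rcCHIL3 at 7 days (323 ± 2.7 under rcCHIL3 and 486 ± 25.6 under MHM + GF; -0.56 ± 0.06, adjusted p = 4.7e-05) and, by less, at 3 days (-0.19 ± 0.06, adjusted p = 0.03). Mthfd2, the mitochondrial folate enzyme, was dim and variable, with -0.03 ± 0.19 and -0.24 ± 0.19 (adjusted p = 0.92 and 0.33).

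Several of the smaller enzyme calls did not survive the loss of an array. Aldh18a1 at 3 days lost its call without any of the 4 arrays of that day (-0.20 to -0.18, adjusted p = 0.087 to 0.12). Psat1 did so at 3 days without array 2 of either medium (-0.19 and -0.20, adjusted p = 0.077 and 0.078) and at 7 days without MHM + GF array 1 (0.19, adjusted p = 0.06). Psph did so at 7 days without MHM + GF array 2 or either rcCHIL3 array (0.19 to 0.27, adjusted p = 0.052 to 0.13) and after quantile normalization (0.20, adjusted p = 0.053). Psph (0.27, adjusted p = 0.099) and Aldh18a1 (-0.27, adjusted p = 0.10) lost their calls at 3 days on the deposited scale.

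Of the other ATF4 targets, Vldlr, the receptor for very low density lipoprotein and reelin, showed the largest change of any member at 7 days. Its brightest probe set had signals of 374 and 362 under rcCHIL3 and 143 and 146 under MHM + GF at 7 days, and 471 and 511 under rcCHIL3 and 668 and 771 under MHM + GF at 3 days. The groups did not overlap on either day: Vldlr was higher in rcCHIL3 at 7 days (1.24 ± 0.08, 2.36-fold, adjusted p = 5.5e-07) and lower at 3 days (-0.53 ± 0.08, adjusted p = 0.00019). All 4 kept probe sets of Vldlr were higher at 7 days, by 1.01 to 1.24. At 3 days they disagreed, 2 being lower (-0.53 and -0.62), 1 higher (0.31) and 1 not past the threshold (0.22, adjusted p = 0.22), so no direction is given for the gene at 3 days.

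Genes of glycolysis and hypoxia ran along the same groups as the brightest Vldlr probe set. Their summed signal over 12 genes was 8749 to 8924 under rcCHIL3 and 3067 to 3181 under MHM + GF at 7 days, and 5356 to 5543 under rcCHIL3 and 9226 to 9334 under MHM + GF at 3 days. All 11 that passed the filter were higher with rcCHIL3 at 7 days (median 1.82), where 21.3% of all probe sets were. At 3 days 9 were lower, where 22.5% of all probe sets were. Vegfa, the angiogenic growth factor, averaged 855 ± 1.9 under rcCHIL3 and 123 ± 8.0 under MHM + GF at 7 days, and 389 ± 7.3 under rcCHIL3 and 843 ± 75.8 under MHM + GF at 3 days. Their part in the changes of Vldlr, Ddit3, Xbp1 and Pdia3, which were likewise higher with rcCHIL3 at 7 days, was not tested.

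Chac1, which degrades glutathione, and Sesn2, which restrains mTORC1 when leucine is low, gave little, and Stc2, a secreted glycoprotein, was dim. Chac1 did not differ past the threshold at 7 days (-0.08 ± 0.09, adjusted p = 0.53) and was lower at 3 days (66.5 ± 1.3 under rcCHIL3 and 83.4 ± 3.6 under MHM + GF; -0.26 ± 0.09, adjusted p = 0.036). That call was lost without any of the 4 arrays of that day (-0.29 to -0.22, adjusted p = 0.065 to 0.15) and on the deposited scale (-0.37, adjusted p = 0.092). Sesn2 overlapped between the media on both days (adjusted p = 0.86 and 0.44). Stc2 stayed under the filter by its brightest probe set, with 37.1 and 36.1 under rcCHIL3 and 18.1 and 18.3 under MHM + GF at 7 days, and 31.9 and 30.6 under rcCHIL3 and 48.2 and 62.6 under MHM + GF at 3 days. A dimmer Stc2 probe set passed the filter through MHM + GF at 3 days alone (53.8 and 73.8, with the other arrays at 1.1 to 29.6), so its lower signal with rcCHIL3 at 3 days was set by the filter and no test is given.

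The largest change in the ER list was that of Pdia6, which was lower with rcCHIL3 at 3 days. Pdia6, a protein disulfide isomerase whose promoter holds the ERSE shown above, had signals of 142 and 142 under rcCHIL3 and 134 and 129 under MHM + GF at 7 days, and 169 and 143 under rcCHIL3 and 319 and 281 under MHM + GF at 3 days. The 3 groups other than MHM + GF at 3 days thus lay close together, and the change was 0.09 ± 0.09 at 7 days (adjusted p = 0.44) and -0.86 ± 0.09 at 3 days (adjusted p = 1.3e-05). Sdf2l1, a partner of the chaperone BiP, had signals of 16.5 and 19.4 under rcCHIL3 and 20.7 and 11.7 under MHM + GF at 7 days, and 34.4 and 34.2 under rcCHIL3 and 68.6 and 66.7 under MHM + GF at 3 days. It passed the filter through MHM + GF at 3 days alone, so that a higher signal there was a condition of the test and its calls in comparisons with that group carry no weight. Its change was 0.08 ± 0.12 at 7 days (adjusted p = 0.63) and -0.69 ± 0.12 at 3 days (adjusted p = 0.00065).

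The remaining chaperones and foldases differed by less. At 3 days Manf, a secreted ER-resident factor, was lower with rcCHIL3 (561 ± 17.1 under rcCHIL3 and 694 ± 26.8 under MHM + GF; -0.30 ± 0.07, adjusted p = 0.0028). Calr, the lectin chaperone calreticulin, was also lower (846 ± 12.1 under rcCHIL3 and 1079 ± 179 under MHM + GF; -0.34 ± 0.10, adjusted p = 0.018). The Calr call was lost without MHM + GF array 1 (-0.17, adjusted p = 0.19), rcCHIL3 array 1 (-0.32, adjusted p = 0.088) or rcCHIL3 array 2 (-0.35, adjusted p = 0.066). With all arrays, the 3 kept probe sets of Calr were each lower at 3 days (-0.34, -0.27 and -0.27). At 7 days the disulfide isomerases Pdia3 and Pdia4 moved in opposite directions. Pdia3 averaged 617 ± 2.2 under rcCHIL3 and 424 ± 41.5 under MHM + GF (0.52 ± 0.09, adjusted p = 0.00072), whereas Pdia4 averaged 235 ± 16.4 under rcCHIL3 and 359 ± 31.0 under MHM + GF (-0.57 ± 0.11, adjusted p = 0.0013). At 3 days Pdia3 did not pass the threshold (-0.21, adjusted p = 0.065), but did after quantile normalization (-0.25, adjusted p = 0.04) or median centring (-0.24, adjusted p = 0.034). Creld2, another disulfide isomerase with an ERSE, and Hyou1, a large ER chaperone, did not differ past the threshold on either day, with changes between -0.05 and 0.13. Canx, the lectin chaperone calnexin, gave 0.03 ± 0.06 and -0.11 ± 0.06 by its brightest probe set, but its other probe sets disagreed at 3 days (-0.58 and 0.35, adjusted p = 0.0045 and 0.011), so no direction is given.

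Of the 5 genes of ER-associated degradation and stress sensing, 3 were higher with rcCHIL3 at 7 days, and 2 were higher and 1 lower at 3 days. Over all probe sets, 21.3% were higher and 22.7% lower at 7 days, and 27.7% were higher and 22.5% lower at 3 days. The share of lower genes at 3 days was thus near that of all probe sets. Sel1l, which holds the degradation complex together, was higher on both days (432 ± 38.9 under rcCHIL3 and 332 ± 8.8 under MHM + GF at 7 days, and 461 ± 24.2 under rcCHIL3 and 354 ± 13.6 under MHM + GF at 3 days), by 0.36 ± 0.08 each time (adjusted p = 0.0033 and 0.0022). Edem1, which marks misfolded glycoproteins for removal, was higher at 7 days (0.39 ± 0.10, adjusted p = 0.011; without rcCHIL3 array 2, 0.38 and 0.051). Herpud1, a membrane protein of the same machinery with both a CARE and an ERSE-II, was lower at 3 days (88.6 ± 9.2 under rcCHIL3 and 135 ± 2.7 under MHM + GF; -0.52 ± 0.10, adjusted p = 0.00082). Xbp1, whose spliced mRNA encodes the factor of the IRE1 branch, had signals of 467 and 477 under rcCHIL3 and 298 and 335 under MHM + GF at 7 days, and 505 and 475 under rcCHIL3 and 515 and 509.8 under MHM + GF at 3 days. It was higher with rcCHIL3 at 7 days (0.55 ± 0.07, adjusted p = 0.00011), with MHM + GF at 7 days standing below the other 3 groups; its probe set does not separate the spliced form. Atf6, the sensor that is cleaved to become a factor, was higher at 3 days (0.38 ± 0.09, adjusted p = 0.0035). Sel1l (0.30, adjusted p = 0.071) and Atf6 (0.37, adjusted p = 0.078) lost their calls at 3 days on the deposited scale.

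The second comparison asked how the members changed between 3 and 7 days in each medium. In rcCHIL3 few ER genes changed, and in MHM + GF more fell: 0 of 14 were higher and 2 lower at 7 days in rcCHIL3, against 2 higher and 7 lower in MHM + GF. Sdf2l1 was among these 7 by the condition of its filter, and the calls of Calr and Hyou1 depended on single arrays. With all arrays, the 3 kept probe sets of Calr were each lower in MHM + GF (-0.28, -0.30 and -0.32). The ATF4 list had 2 of 19 higher and 8 lower in rcCHIL3, and 4 higher and 8 lower in MHM + GF. Over all probe sets, 18% were higher and 17.9% lower in rcCHIL3, and 31.1% were higher and 26% lower in MHM + GF. Fewer calls in rcCHIL3 than in MHM + GF were thus not particular to the ER list. The share of lower ER genes in rcCHIL3 was near that of all probe sets. Median changes of the ER list were 0.01 under rcCHIL3 and -0.21 under MHM + GF, and those of the ATF4 list -0.20 and -0.13, beside -0.00 and 0.04 for all probe sets. Changes of at least 2-fold were seen for 2 members in rcCHIL3 (2.89% of all probe sets) and 4 in MHM + GF (7.99%). Without rescaling, the ATF4 list had 2 higher and 4 lower in rcCHIL3.

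In rcCHIL3 the 2 members with a 2-fold change were Slc7a5 and Atf5, both lower at 7 days. Slc7a5 averaged 151 ± 6.9 at 7 days and 507 ± 3.0 at 3 days (-1.62 ± 0.07, adjusted p = 5.9e-08). Atf5 averaged 175 ± 21.9 at 7 days and 449 ± 28.5 at 3 days (-1.27 ± 0.10, adjusted p = 2.7e-06). In MHM + GF Slc7a5 also fell, by 0.81 (adjusted p = 2.1e-06), whereas Atf5 rose by 0.89 ± 0.10 (adjusted p = 1.3e-05). Cebpb rose in both media, by 0.61 ± 0.10 under rcCHIL3 and 0.59 ± 0.10 under MHM + GF (adjusted p = 0.00071 and 0.0004). Asns fell in both, by 0.40 in rcCHIL3 (adjusted p = 0.0079) and by 0.29 in MHM + GF (adjusted p = 0.026). Its call was lost in rcCHIL3 without array 1 of 3 days (-0.24, adjusted p = 0.088) and in MHM + GF without any of its 4 arrays (-0.30 to -0.27, adjusted p = 0.06 to 0.087).

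In MHM + GF the 4 members with a 2-fold change were all lower at 7 days; Sdf2l1 was among them by the condition of its filter. Vldlr fell by 2.17 (144 ± 1.8 at 7 days and 719 ± 73.1 at 3 days; SE 0.08, adjusted p = 2.6e-09), and its 4 kept probe sets changed by -2.17 to -0.93. Sdf2l1 fell by 1.29 (SE 0.12, adjusted p = 4.7e-06), Pdia6 by 1.07 (SE 0.09, adjusted p = 2e-06) and Atf4 by 1.02 (SE 0.07, adjusted p = 2.9e-07). In rcCHIL3 the changes of the same genes were -0.40, -0.52, -0.12 and -0.24 (adjusted p = 0.0024, 0.0069, 0.35 and 0.019). Manf fell in both media, by 0.44 in rcCHIL3 and by 0.63 in MHM + GF (adjusted p = 0.00036 and 9.5e-06), while Xbp1 fell in MHM + GF (-0.66, adjusted p = 1.2e-05) and not past the threshold in rcCHIL3 (-0.05, adjusted p = 0.60). Pdia4 rose in MHM + GF (0.72 ± 0.11, adjusted p = 0.00015). The glycolysis and hypoxia genes moved along these groups too. At 7 days 11 of 11 were lower in MHM + GF (26% of all probe sets) and 10 of 11 higher in rcCHIL3 (18%). The part of these genes was not tested. Several smaller calls in MHM + GF were lost when an array was left out. For Calr this held without MHM + GF array 1 of 3 days, MHM + GF array 2 of 7 days or either rcCHIL3 array of 3 days (-0.28 to -0.11, adjusted p = 0.058 to 0.38), and for Hyou1 without any of those arrays or MHM + GF array 2 of 3 days (-0.33 to -0.14, adjusted p = 0.058 to 0.34). Mthfd2 lost its call without array 2 of either day (-0.45 and -0.34, adjusted p = 0.14 and 0.19), and Slc7a11 without any of the 4 MHM + GF arrays (0.23 to 0.31, adjusted p = 0.053 to 0.13). In rcCHIL3 the calls of Atf4 (-0.26 to -0.20, adjusted p = 0.061 to 0.11 without either array of 3 days or array 2 of 7 days), Aldh18a1 (-0.25 to -0.24, adjusted p = 0.055 to 0.07 without either array of 3 days or array 1 of 7 days) and Shmt2 (0.28 without array 2 of 7 days) were lost. Without rescaling, the calls in rcCHIL3 of Atf4, Asns, Aldh18a1 and Vldlr (-0.14, -0.33, -0.15 and -0.31, adjusted p = 0.43, 0.11, 0.45 and 0.079) and those in MHM + GF of Slc7a11 and Atf6 (0.35 each, adjusted p = 0.16 and 0.092) were lost. After quantile normalization those in MHM + GF of Slc7a11 (0.16, adjusted p = 0.16) and Calr (-0.25, adjusted p = 0.065) were lost.

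**Figure D3:**
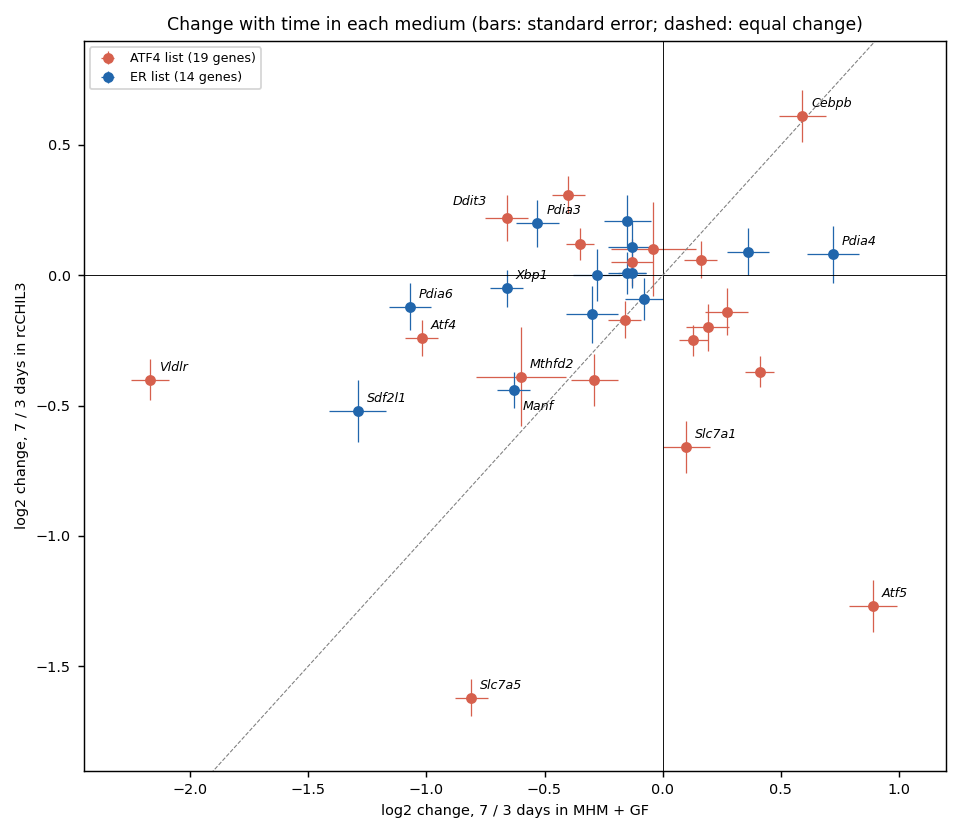
Log2 change between 7 and 3 days in MHM + GF (x axis) and in rcCHIL3 (y axis) for the 33 tested members, with standard errors as bars and a dashed line of equal change; genes with a change of at least 0.5 are named. The 2 axes share no arrays. Vldlr, Sdf2l1, Pdia6 and Atf4 lie far to the left, at -2.17 to -1.02 in MHM + GF, and Atf5 lies at 0.89 in MHM + GF and -1.27 in rcCHIL3.

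Over the 4 groups, the highest mean lay most often in MHM + GF at 3 days in both lists. The mean of an ER list gene was highest in MHM + GF at 3 days for 10 of 14 genes and lowest in MHM + GF at 7 days for 9 of 14. In the ATF4 list the highest mean lay in MHM + GF at 3 days for 9 of 19 genes, among them Atf4, Ddit3, Asns, Psat1 and Shmt2. It lay in rcCHIL3 at 3 days for 6 of 19, which were Atf5, Cebpg and the 4 tested transporters Slc7a11, Slc7a5, Slc7a1 and Slc3a2. The same counts were not made over all probe sets, so they do not set the lists apart from the other genes. Sdf2l1 and Slc7a11 passed the filter only through the group of their highest mean, which favoured their place in these counts. The order of neighbouring groups is a description: for Creld2, Canx and Sesn2 no comparison between groups passed the threshold by the brightest probe set.

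**Figure D4:**
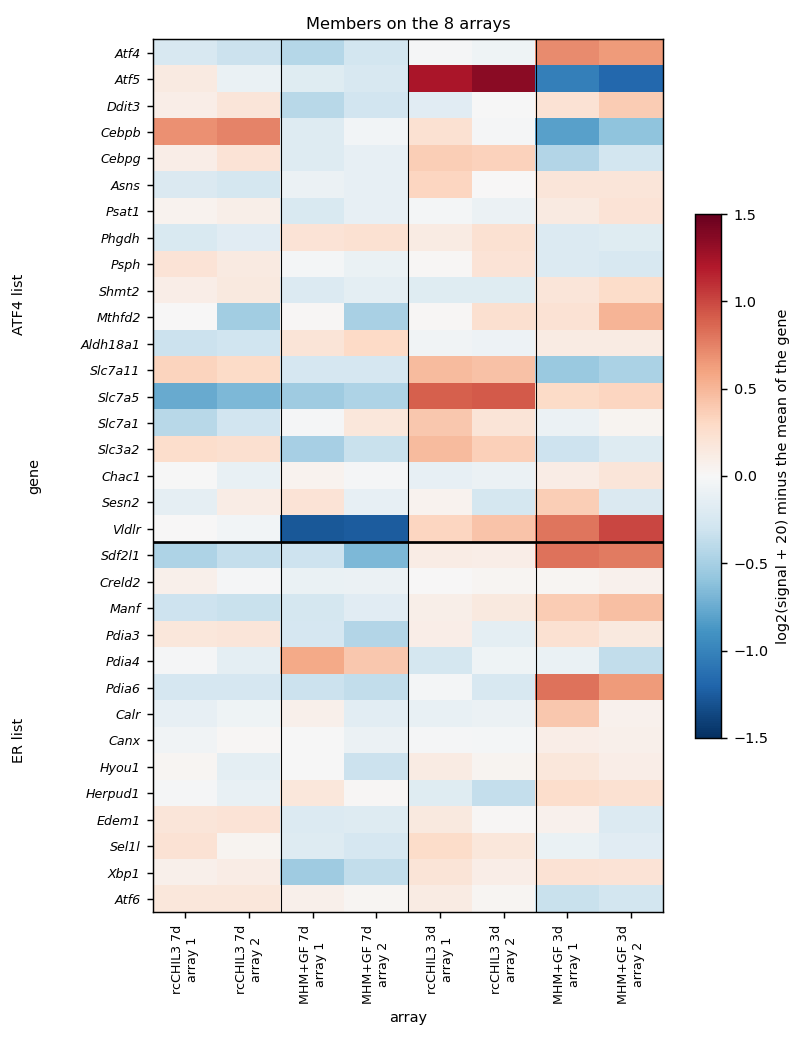
The 33 tested members (rows, ATF4 list above the ER list) on the 8 arrays (columns), coloured by log2(signal + 20) minus the mean of the gene. The 2 arrays of each group look alike, Atf5 and the transporters are highest in rcCHIL3 at 3 days, and Atf4, Vldlr, Sdf2l1 and Pdia6 are highest in MHM + GF at 3 days.

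The third comparison tested whether the rcCHIL3 effect differed between the days. It did for 18 of 33 members: the effect at 7 days minus that at 3 days was positive for 5 of 19 members of the ATF4 list and negative for 7, and positive for 5 of 14 members of the ER list and negative for 1, beside 18.7% and 22.7% of all probe sets. Among these, the negative sign of Slc7a11 and the positive sign of Sdf2l1 were favoured by the filter, which each passed through 1 group alone. The median difference was -0.01 for the ATF4 list, 0.21 for the ER list and -0.04 for all probe sets. Atf5 had the largest negative difference (-2.16 ± 0.14, adjusted p = 4.7e-07) and Vldlr the largest positive one (1.77 ± 0.11, adjusted p = 4.6e-07). In the ER list Pdia6 led with 0.96 ± 0.13 (adjusted p = 0.00016). The sign does not give the day of the larger effect: Atf4 and Pdia6 had positive differences with effects of 0.07 and 0.09 at 7 days and -0.71 and -0.86 at 3 days. For Cebpb, Slc3a2 and Sel1l, which were higher on both days, the difference was 0.01, -0.01 and -0.01 by the brightest probe sets (adjusted p = 0.94, 0.97 and 0.97; SE 0.14, 0.10 and 0.11). A dimmer Sel1l probe set gave 0.53, past the threshold. On the deposited scale, which moved the median of all probe sets to 0.12, the difference was positive for 5 and negative for 4 members of the ATF4 list, and positive for 5 and negative for 0 members of the ER list.

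Genes of the same pathways outside the members were taken from further lists. Like the members, these lists were chosen with earlier results of these data known, so their shares are a description and not a test. Of 20 aminoacyl-tRNA synthetases, which load amino acids onto tRNA and are common ATF4 targets, 19 passed the filter. At 7 days 1 of these was higher with rcCHIL3 (Sars, 0.19, adjusted p = 0.047) and 1 lower (Lars, -0.34, adjusted p = 0.002), and at 3 days 5 were higher, led by Aars (0.44, adjusted p = 0.0024) and Nars (0.44, adjusted p = 0.0016), and 1 was lower (Kars, -0.57, adjusted p = 6.6e-05). Over all probe sets, 21.3% were higher and 22.7% lower at 7 days, and 27.7% were higher and 22.5% lower at 3 days. The share of higher synthetases at 3 days was near that of all probe sets, and the other shares were smaller than theirs. The Sars call at 7 days was lost without any array but MHM + GF array 1 of that day (0.13 to 0.23, adjusted p = 0.053 to 0.26), after median centring (0.18, adjusted p = 0.075) and after quantile normalization (0.18, adjusted p = 0.068), and on the deposited scale Sars and Lars missed the threshold (0.30 and -0.26, adjusted p = 0.082 and 0.15).

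A list of 20 other amino acid response genes, of which 16 passed the filter, had 9 higher and 2 lower at 7 days (21.3% and 22.7% of all probe sets), and 4 higher and 8 lower at 3 days (27.7% and 22.5%). The stress factor Atf3 averaged 98.4 ± 3.1 under rcCHIL3 and 35.0 ± 2.6 under MHM + GF at 7 days (1.11 ± 0.10, adjusted p = 5.6e-06) and did not differ past the threshold at 3 days (0.18, adjusted p = 0.14). The glutamine transporter Slc1a5 was higher on both days (1.02 ± 0.11 and 0.51 ± 0.11, adjusted p = 2.9e-05 and 0.0023). It passed the filter through the 4 rcCHIL3 arrays alone (58.5 to 73.5, against 18.5 to 44.1 with MHM + GF), so its direction was favoured by the filter. At 3 days the growth arrest gene Gadd45a (282 ± 12.3 under rcCHIL3 and 71.7 ± 8.4 under MHM + GF; 1.72 ± 0.08, adjusted p = 1.8e-08) and the translation repressor Eif4ebp1 (0.84 ± 0.07, adjusted p = 2.8e-06) were higher. Lower at 3 days were Cbs, of cysteine synthesis (37.6 ± 2.0 under rcCHIL3 and 154 ± 16.4 under MHM + GF; -1.59 ± 0.10, adjusted p = 1.4e-07), and the alanine aminotransferase Gpt2 (229 ± 5.7 under rcCHIL3 and 708 ± 81.6 under MHM + GF; -1.54 ± 0.12, adjusted p = 8.1e-07). Both were also lower at 7 days (-0.32 and -0.45, adjusted p = 0.019 and 0.0088), calls that were lost without MHM + GF array 1 or rcCHIL3 array 2 (-0.27 and -0.30, adjusted p = 0.10 and 0.088, for Cbs, and -0.39 and -0.26, adjusted p = 0.052 and 0.088, for Gpt2). Cbs also lost it on the deposited scale (-0.28, adjusted p = 0.22). Among 5 tested genes around eIF2alpha, the ER kinase PERK (Eif2ak3) was higher at 7 days (0.45 ± 0.09, adjusted p = 0.0025) and the phosphatase subunit Ppp1r15b at 3 days (0.40 ± 0.08, adjusted p = 0.0012).

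In a list of 31 further ER folding and unfolded protein response genes, of which 29 passed the filter, 13 were higher and 1 lower at 7 days, where 21.3% of all probe sets were higher and 22.7% lower. At 3 days 10 were higher and 8 lower, shares near the 27.7% and 22.5% of all probe sets. P4hb, the archetypal disulfide isomerase, averaged 1072 ± 68.3 under rcCHIL3 and 554 ± 9.3 under MHM + GF at 7 days (0.93 ± 0.06, adjusted p = 7.8e-07) and was lower at 3 days (-0.38 ± 0.06, adjusted p = 0.00039). Pdia5 gave 0.66 ± 0.11 and -0.65 ± 0.11 (adjusted p = 0.00061 and 0.00045). It reached the filter limit in MHM + GF at 3 days (73.8 and 73.0) and otherwise on rcCHIL3 array 1 of 7 days alone (52.1). Its lower value with rcCHIL3 at 3 days was therefore favoured by the filter. Hspa5, the chaperone BiP, averaged 977 ± 32.7 under rcCHIL3 and 1548 ± 1.6 under MHM + GF at 3 days (-0.65 ± 0.06, adjusted p = 3.8e-06). At 7 days it was higher (0.24, adjusted p = 0.0078), a call lost without array 2 of either medium (0.20 each, adjusted p = 0.054 and 0.058). Higher at 3 days were Derl1 (0.71 ± 0.06, adjusted p = 1.6e-06), of retrotranslocation, and the BiP cochaperone Dnajb9 (0.59 ± 0.06, adjusted p = 1.4e-05). Mbtps1, the protease that cleaves ATF6, was the 1 lower gene at 7 days (-0.32 ± 0.08, adjusted p = 0.0083), a call lost on the deposited scale (-0.24, adjusted p = 0.19).

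**Figure D5:**
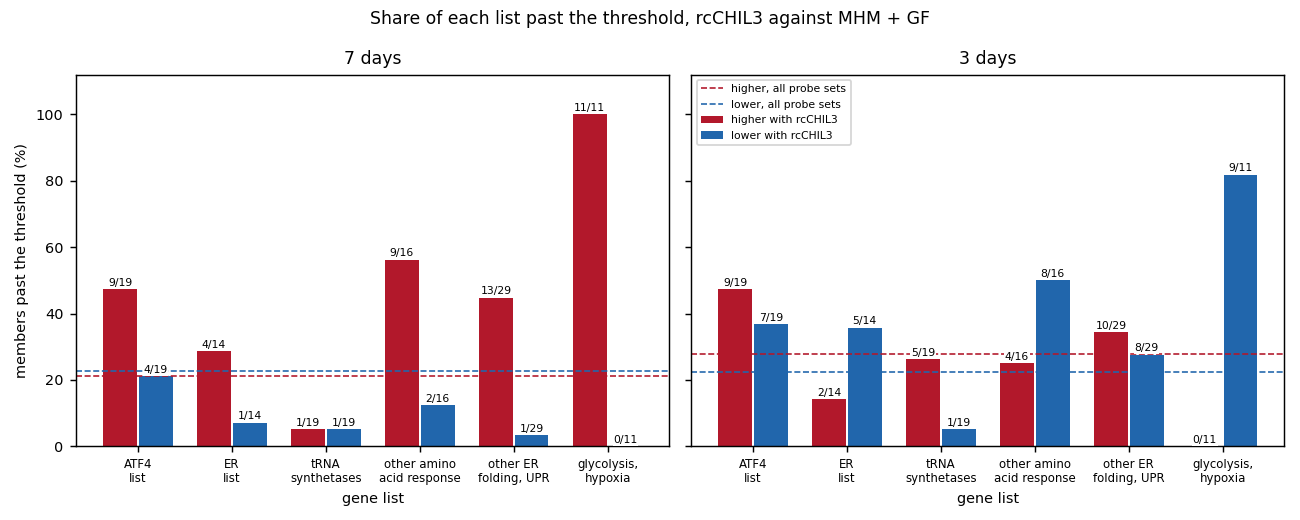
Percentage of the tested genes of 6 lists that passed the threshold as higher (red) or lower (blue) in rcCHIL3 against MHM + GF at 7 days (left) and 3 days (right), with the counts above the bars and dashed lines for all probe sets. The hypoxia list is higher throughout at 7 days (11 of 11) and mostly lower at 3 days (9 of 11), and the ATF4 list has 9 of 19 genes higher on both days.

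The choice of probe set changed calls. Among 17 members with several kept probe sets, all probe sets gave the same call for 13 at 7 days, 11 at 3 days, 12 between the days in rcCHIL3, 13 between the days in MHM + GF and 8 for the difference between the days. Only some probe sets passed for 4, 4, 5, 3 and 8 members in the same order; at 3 days Herpud1 was one, with -0.52 by its brightest probe set and -0.16 (adjusted p = 0.41) by the other. Calls in both directions were seen for none at 7 days or between the days in rcCHIL3. They were seen for 2 at 3 days (Vldlr and Canx) and 1 between the days in MHM + GF and for the difference (Canx). Some probe sets used (those of Vldlr, Phgdh, Shmt2 and Aldh18a1, named with x, and of Psat1, Canx, Hyou1 and Xbp1, named with s) can by their design also bind related transcripts.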

How the data were processed

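RNA from mouse NSCs was measured on 8 Affymetrix GeneChip Mouse Genome arrays, 2 for each of 4 groups taken from the sample titles. The deposited values are signal intensities on a linear scale that came from the MAS5 algorithm, as run by the authors (submitters' processing notes: Affymetrix Expression Console 1.1). No background correction was repeated. The deposited averages over 45101 probe sets were 267.3 to 316.6, whereas the methods name an average of 100, so each array was brought to 100. Detection calls were not used. Probe sets with a signal of 50 on at least 2 of 8 arrays were kept, without 64 controls. Group means of log2(signal + 20) were compared in one linear model over the 4 groups by limma (version 3.58.1; R version 4.3.3), with a trended eBayes prior and 4 residual degrees of freedom. The two-sided p-values were adjusted by Benjamini-Hochberg over 15679 probe sets, with a threshold of 0.05. The procedure was tested on simulated data. With 2 arrays in a group, their number limits the precision, and p-values measure the spread between these arrays.

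Gene names come from the platform annotation, in which 34958 probe sets carry 1 symbol, 932 several and 9211 none. Genes were named from the first kind, of which 34754 matched RefSeq genes by Entrez number. The members and all lists were chosen with earlier results of these data known. Members with a 2-fold change are given on every array, and of each other pathway list the 2 genes with the largest change in each direction and day are named; Hspa5 comes under this rule at 3 days. The 12 members plotted by array were chosen with their values known. Alternatives were an offset of 50, a floor of 10 in its place, no low-signal filter, a limit of 100, quantile normalization, median centring, the deposited scale, only the groups compared, the replicate block, eBayes without a trend or with a robust trend, the methods' t-test, a 2-fold limit, other probe sets and leaving out each array. Python 3.11.15 ran the tables (pandas 2.3.3 with numpy 2.4.6) and the plots (matplotlib 3.10.9).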

Additional observations from a re-analysis of the deposited data

Results flagged for a closer look

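Each result here is a gene for which the effect of rcCHIL3 differed between the days by the interaction term of the limma fit. The value is the log2 effect at 7 days minus that at 3 days. In the ATF4 list the difference was positive for Atf4 (0.78), Ddit3 (0.88), Psat1 (0.47), Shmt2 (0.71) and Vldlr (1.77), with adjusted p between 4.6e-07 and 0.0014. It was negative for Atf5 (-2.16), Phgdh (-0.79), Slc7a5 (-0.81) and Slc7a1 (-0.75), with adjusted p between 4.7e-07 and 0.0013, and for Aldh18a1 (-0.37, adjusted p = 0.0071), Cebpg (-0.40, adjusted p = 0.029) and Slc7a11 (-0.41, adjusted p = 0.029). The Vldlr value is that of its brightest probe set; the other kept ones gave 0.81 to 1.63. A dimmer probe set of Aldh18a1 gave 0.05 (adjusted p = 0.82). The dimmer kept probe sets of Slc7a1 and Cebpg gave -0.06 and -0.02 (adjusted p = 0.81 and 0.94). For these 3 genes the difference between the days thus depended on the probe set. Slc7a11 passed the filter through rcCHIL3 at 3 days alone, which favoured a negative difference.

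In the ER list it was positive for Sdf2l1 (0.77), Pdia3 (0.74), Pdia6 (0.96) and Xbp1 (0.61), with adjusted p between 0.00016 and 0.0043, and for Herpud1 (0.36, adjusted p = 0.0498). It was negative for Pdia4 (-0.64, adjusted p = 0.0054). Sdf2l1 passed the filter through MHM + GF at 3 days alone, which favoured a positive difference, so its call carries no weight. Cebpg missed the threshold without MHM + GF array 1 of 3 days, MHM + GF array 2 of 7 days, either rcCHIL3 array of 3 days or rcCHIL3 array 1 of 7 days (-0.41 to -0.31, adjusted p = 0.068 to 0.097). Slc7a11 did so without any array but MHM + GF array 2 of 3 days (-0.44 to -0.37, adjusted p = 0.051 to 0.083), and Herpud1 without any array but MHM + GF array 1 of 7 days and rcCHIL3 array 1 of 3 days (0.28 to 0.41, adjusted p = 0.061 to 0.18). On the deposited scale Cebpg, Aldh18a1, Slc7a11, Pdia4 and Herpud1 missed it (-0.28, -0.21, -0.44, -0.51 and 0.57, adjusted p = 0.40, 0.43, 0.26, 0.054 and 0.057), and Calr passed it (0.46, adjusted p = 0.025). Slc7a11 also missed it after quantile normalization (-0.32, adjusted p = 0.072).

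Among the named genes of the wider lists, positive differences were those of Kars (0.62), Atf3 (0.93), Gpt2 (1.09), Cbs (1.27), Slc1a5 (0.51), Eif2ak3 (0.42), Hspa5 (0.89), P4hb (1.30) and Pdia5 (1.31), and negative ones those of Lars (-0.30), Nars (-0.46), Gadd45a (-1.16), Dnajb9 (-0.52) and Derl1 (-0.59), with adjusted p between 7.7e-07 and 0.029. Calls were lost for Lars without MHM + GF array 2 of 7 days, either MHM + GF array of 3 days, rcCHIL3 array 2 of 7 days or rcCHIL3 array 1 of 3 days (-0.30 to -0.25, adjusted p = 0.057 to 0.11). Nars lost its call without MHM + GF array 1 of 3 days or array 2 of either rcCHIL3 group (-0.42 to -0.37, adjusted p = 0.0503 to 0.055). Slc1a5 did so without MHM + GF array 1 of 7 days, MHM + GF array 2 of 3 days, rcCHIL3 array 2 of 7 days or rcCHIL3 array 1 of 3 days (0.42 to 0.46, adjusted p = 0.067 to 0.086). Eif2ak3 did so without rcCHIL3 array 1 of 7 days, rcCHIL3 array 2 of 3 days, MHM + GF array 2 of 7 days or MHM + GF array 1 of 3 days (0.32 to 0.39, adjusted p = 0.067 to 0.087). On the deposited scale Lars, Nars and Dnajb9 missed the threshold (-0.14, -0.30 and -0.36, adjusted p = 0.66, 0.24 and 0.11). The filter favoured a positive difference for Pdia5, which would not have passed it without MHM + GF at 3 days.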

How the results depend on the processing

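Over 24 alternatives, 5442 of 5959 gene values kept their direction and their side of the threshold, 460 fell below it, 49 passed it and 8 reversed; 87 further values changed sign with no call on either side. Of the summary counts and medians, 529 of 580 stayed near their value.

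With the dimmest kept probe set in place of the brightest, reversals were Slc7a1 (0.19) at 7 days, Vldlr (0.22) and Canx (0.35) at 3 days, Slc7a1 (-0.51) and Canx (0.28) between the days in MHM + GF, and Aldh18a1 (0.05) and Canx (-0.51) for the difference between days. The ATF4 list medians then were 0.09 at 3 days and -0.26 over time in MHM + GF, and the ER list median -0.32 over time in MHM + GF. With the mean of all kept probe sets of a gene, Slc7a1 reversed over time in MHM + GF (-0.21), the ER list median there was -0.30, and with 1 value per gene fewer units were tested, so that 4354 passed at 7 days, 5044 at 3 days, 5480 over time in MHM + GF and 4192 for the difference.

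With a filter of 100, the ATF4 list median at 3 days was 0.15, and 1 ER list member passed over time in rcCHIL3. On the deposited scale the ATF4 list median was 0.33 and the ER list median 0.20 at 7 days, 6 ATF4 list members passed and the ER list median was 0.11 over time in rcCHIL3, and the medians of the difference were 0.17 (ATF4 list) and 0.40 (ER list). Of the probe sets called, the share that was higher there was 63.8% at 7 days (48.5% after rescaling), 42.6% at 3 days (55.1%), 68.9% over time in rcCHIL3 (50.2%) and 67.2% for the difference (45.3%).

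The methods' t-test called, before adjustment, 5144 probe sets, 12 ATF4 list and 4 ER list members at 7 days, 6518, 13 and 7 at 3 days, 4857, 10 and 2 over time in rcCHIL3, and 6583, 11 and 8 over time in MHM + GF. After Benjamini-Hochberg adjustment it called 37, 0 and 0 at 7 days, 2434, 5 and 1 at 3 days, 0, 0 and 0 over time in rcCHIL3, and 2376, 5 and 1 over time in MHM + GF, where limma had called 6899, 13 and 5, 7872, 16 and 7, 5617, 10 and 2, and 8956, 12 and 9. A limit of at least 2-fold left 522, 1 and 0 at 7 days, 1125, 1 and 0 at 3 days, 453, 2 and 0 over time in rcCHIL3, 1253, 2 and 2 over time in MHM + GF, and 1257, 2 and 0 for the difference.

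Without 1 array, the probe sets called ranged over 5123 to 6891 at 7 days, 6192 to 8067 at 3 days, 3731 (without rcCHIL3 array 2 of 3 days) to 5769 over time in rcCHIL3, 7467 to 8940 over time in MHM + GF and 5238 to 6210 for the difference. ATF4 list members called were 11 to 13, 12 to 16, 7 to 10, 9 to 12 and 10 to 12 in the same order, with medians of 0.11 to 0.23, -0.12 to 0.14, -0.23 to -0.16, -0.17 to -0.10 and -0.12 to 0.05. ER list members called were 4 to 5, 6 to 8, 2 to 3, 7 to 9 and 5 to 6, with medians of 0.03 to 0.14, -0.11 to -0.07, -0.01 to 0.01, -0.31 to -0.14 and 0.15 to 0.28.

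Arrays with the same replicate number deviated together weakly or not at all (correlations of -0.011 to 0.102). These values cannot tell whether the numbers mark shared experiments. With the replicate number as a block, 7203 probe sets passed at 7 days, 8103 at 3 days, 5866 over time in rcCHIL3, 9207 over time in MHM + GF and 6755 for the difference, with 13, 16, 11, 12 and 12 members of the ATF4 list and 5, 8, 3, 9 and 6 of the ER list.

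Low signals limit the precision of Trib3, Nupr1, Slc7a3 and Stc2, and offsets shrink the changes of dim genes such as Slc7a11 and Sdf2l1.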
